A study of Mus musculus with 44 samples.

Results

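Wild-type spermatocytes of 2 experiments on the testis histone TH2B were compared here across all detected genes. They comprised 5 arrays of experiment 2 (Expt2) and 6 of experiment 1 (Expt1), together 11 of the 44 mouse BeadChip arrays of the series, chosen by their labels alone. Of 19053 genes named on the array, 10184 passed the detection filter in these spermatocytes and were tested. The 5 Expt2 arrays held wild-type spermatocytes from adult mice of the experiment that also studied Th2b kd mice, said to make no TH2B. The 6 Expt1 arrays held wild-type spermatocytes from adult mice of the experiment that also studied Th2b+/tag mice, whose TH2B carries His, Flag and HA tags at its C terminus. The titles and the genotype values call both groups wild type, while the heading of that genotype field names brdt, another testis gene, so the groups follow the titles. Wild-type round spermatids (5 arrays of Expt2, 6 of Expt1), kd spermatocytes and spermatids (5 arrays each, Expt2) and tag spermatocytes and spermatids (6 arrays each, Expt1) served only to show whether a difference recurred in other arrays. The strain of the mice and the way the cells were purified are not given in the sources used here. Every Expt2 array differs from every Expt1 array in experiment, so that strain, colony, batch and the purity of the cell fractions cannot be told apart. The labels call the arrays of a group biological replicates.

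Spermatocytes are the germ cells of the testis that pass through meiosis, and they transcribe an unusually wide range of genes, many of which have no known task in the testis. Mouse colonies can differ in inherited variants that raise, lower or silence a single transcript, including deletions, inserted transposons and changes in promoters or splice sites. On a bead array a base change under a probe can also lower the signal without a change in RNA, since each probe reads a single short stretch of a transcript. Genes read on every array of one group and on none of the other are called on/off genes below. A probe counted as above background when its detection p, which sets it against the negative control beads of the same array, was under 0.05.

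Among the on/off genes, 13 had the same pattern in every pair of groups measured, and 4 of these are shown here with their promoters so that the region upstream of an on/off gene can be read. Cmya5 and Nuf2 were above background only in Expt2, and Grtp1 and Tas1r1 only in Expt1. All 4 sequences are the reference sequence of RefSeq (build GRCm38.p6), around a start of the gene, on the minus strand and written 5′ to 3′. The Grtp1 gene reaches to position 13200766, so its window lies further inside the gene than those of Cmya5, Nuf2 and Tas1r1. They carry no information on the alleles of these mice. Capitals mark matches to AACNGNC, the core of the sites of MYB factors, among them the spermatocyte factor A-MYB.
Cmya5, chr13:93144675-93144974: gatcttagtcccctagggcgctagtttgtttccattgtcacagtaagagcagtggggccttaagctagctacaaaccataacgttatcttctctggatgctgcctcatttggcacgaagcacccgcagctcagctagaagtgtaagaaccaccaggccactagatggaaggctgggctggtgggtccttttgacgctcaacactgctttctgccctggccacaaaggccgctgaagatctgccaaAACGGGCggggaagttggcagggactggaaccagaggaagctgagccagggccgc
Nuf2, chr1:169531415-169531714: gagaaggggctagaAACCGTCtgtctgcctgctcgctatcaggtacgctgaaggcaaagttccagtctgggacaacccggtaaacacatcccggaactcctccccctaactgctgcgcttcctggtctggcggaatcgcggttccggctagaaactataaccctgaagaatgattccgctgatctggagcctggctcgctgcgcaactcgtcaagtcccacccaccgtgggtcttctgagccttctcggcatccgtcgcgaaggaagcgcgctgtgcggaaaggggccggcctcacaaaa
Grtp1, chr8:13200575-13200874: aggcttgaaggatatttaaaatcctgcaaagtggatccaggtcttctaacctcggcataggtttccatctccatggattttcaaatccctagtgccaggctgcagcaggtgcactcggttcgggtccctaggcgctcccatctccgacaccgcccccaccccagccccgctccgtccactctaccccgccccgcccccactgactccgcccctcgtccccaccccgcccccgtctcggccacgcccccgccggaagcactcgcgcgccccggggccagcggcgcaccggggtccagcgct
Tas1r1, chr4:152038441-152038740: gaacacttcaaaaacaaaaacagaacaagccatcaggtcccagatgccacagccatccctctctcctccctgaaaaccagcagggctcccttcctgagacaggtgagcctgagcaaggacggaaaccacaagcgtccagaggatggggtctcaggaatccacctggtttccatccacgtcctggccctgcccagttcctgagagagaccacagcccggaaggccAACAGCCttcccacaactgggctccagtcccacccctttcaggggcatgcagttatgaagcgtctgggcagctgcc

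The AACNGNC letters stood in the promoters of Cmya5, Nuf2 and Tas1r1, on either strand, and in 32.8% of 32851 mouse promoters of the same length. The TATA box letters TATAAA were in none of the 4 on either strand, against 13.6% of those promoters. The same held for the CCAAT box (37.4%) and for TGACGTCA, the full cAMP response element (1.79%). No searched motif overlapped another. The base composition of the 4 differed widely. Grtp1 had a GC content of 67% with 26 CG pairs and Nuf2 of 59% with 23 CG pairs, while Tas1r1 (58%) held 5 CG pairs and Cmya5 (55.3%) held 9. The median promoter had a GC content of 52.7% and 7 CG pairs.

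On the first principal component of all 44 arrays, 10 of the 11 arrays lay between 39.7 and 78.4 and the wild-type round spermatid arrays between -72.5 and -39.3. Expt1 replicate 1, at -3.82, lay between the 2 cell types. Without it, 3096 genes in place of 2404 were called between the wild types and 73 in place of 62 were on/off, by the definitions given below. Genes of meiotic prophase were at a mean level of 9.53 ± 0.11 on the log2 signal scale in Expt2 (SD, n = 5) and 9.41 ± 0.12 in Expt1 (SD, n = 6), over the 33 of 50 listed genes that were tested. The meiotic genes Sycp3, Dmc1, Hormad1, Mael, Tex15 and Mybl1 had probes that did not pass the filter, 4 further ones did not either, 7 had no named probe, and Sycp1 was faint (5.43 in Expt2, 5.42 in Expt1). The testis-specific chaperone gene Hspa2 was at 14.69 in Expt2 and 14.60 in Expt1, and the germ-cell lactate dehydrogenase gene Ldhc at 14.71 in Expt2 and 14.75 in Expt1. Transcripts listed for other cells were detected in both groups, though not all of those listed. The Leydig cell genes Insl3 (12.84 in Expt2, 12.99 in Expt1) and Cyp17a1 (11.40 in Expt2, 11.44 in Expt1) were bright, while Star was above background on 2 of 5 Expt2 and 3 of 6 Expt1 arrays, and Hsd3b1 did not pass the filter. The Sertoli genes Amh and Gata4 and the macrophage genes Csf1r and Adgre1 did not pass it either. Lhcgr, Wt1 and Cd68 had no named probe and were not measured. The probe of H2bc1, the gene of TH2B, was above background on 0 of 5 Expt2 and 0 of 6 Expt1 arrays and was not tested. Of 45281 probes, the Expt2 arrays had 16988 to 18193 above background, and the Expt1 arrays 17354 to 19348. The number of arrays limits the precision.

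Among the marker lists, round spermatid genes had the largest difference of means. Their mean level ran from 10.18 to 10.58 on the 5 Expt2 arrays, against 10.43 to 12.12 on the 6 Expt1 arrays, where replicates 1, 2 and 3 were highest (12.12, 11.32 and 11.28), and from 12.23 to 12.47 on the wild-type spermatid arrays. Only replicate 5 of Expt1 lay within the Expt2 range. The difference of the means was -0.69 (exact permutation test over 462 splits, two-sided, p = 0.0281, 0.202 after adjustment over 11 lists), and without Expt1 replicate 1 it was -0.49. None of the 11 lists passed after adjustment, and the smallest p this design allows is 0.00216. The mean level of Sertoli genes ran from 5.70 to 6.48 in Expt2 and from 5.89 to 6.95 in Expt1. That of macrophage and blood genes ran from 4.91 to 5.44 in Expt2 and from 5.26 to 6.39 in Expt1. Expt1 replicate 1 also stood apart on the first principal component of the 11 arrays, which held 57.3% of the variance, at 72.7 with the other Expt1 arrays between -5.17 and 30.7 and the Expt2 arrays between -31.2 and -20.1. Per gene, the median SD between arrays was 0.201 in Expt2 and 0.293 in Expt1, and 71.3% of the genes had the larger SD in Expt1. In bulk RNA, fewer cells of a type and less RNA per cell cannot be told apart.

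**Figure D1:**
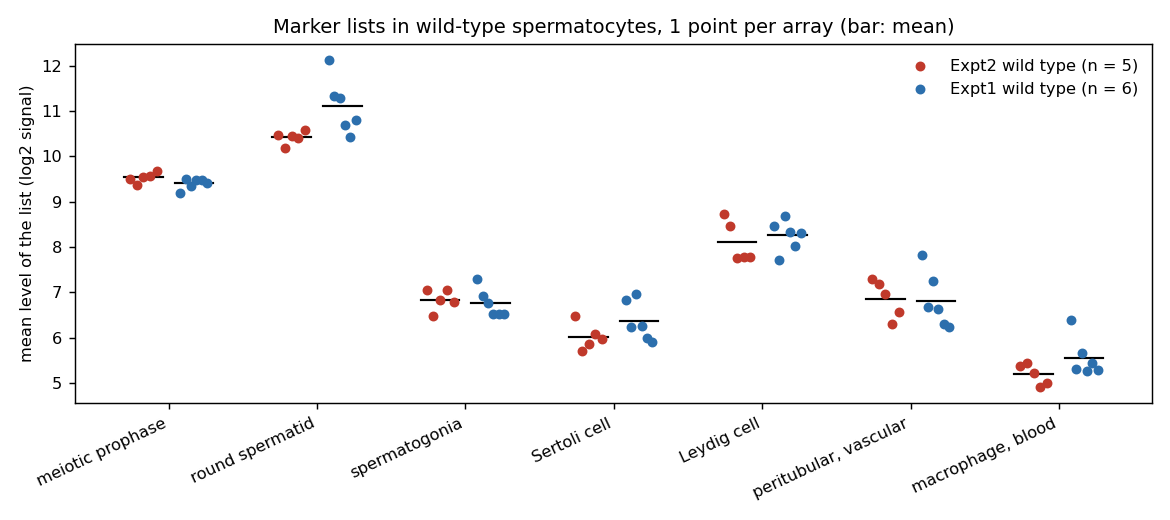
Mean log2 signal of each marker list (y axis) on every wild-type spermatocyte array, 5 of Expt2 (red) and 6 of Expt1 (blue), with a bar at each group's mean. The round spermatid list lies between 10.18 and 10.58 in Expt2 and spreads from 10.43 to 12.12 in Expt1, while the meiotic prophase list is narrow in both groups.

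Between the wild types, 1332 genes were higher in Expt2 (13.1% of 10184) and 1072 were lower (10.5%) at an adjusted p under 0.05 (limma, two-sided, Benjamini-Hochberg over all 10184 genes). These 2404 genes were 23.6% of those tested. At least 2-fold, 246 were higher (2.42%) and 357 lower (3.51%), together 603 (5.92%). The median difference of all genes was 0.01 on the log2 scale. For 1684 genes (16.5%) no array of one group overlapped the other, and 1565 of these passed the test.

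The genes furthest apart were 1700104B16Rik and Plk1, both lower in Expt2. 1700104B16Rik, a transcript known only from cDNA collections and without a chromosome in the RefSeq table, read 5.33, 5.35, 5.06, 5.51 and 5.17 in Expt2, against 11.17, 11.55, 11.69, 11.53, 11.60 and 11.68 in Expt1. The gap between the nearest arrays of the 2 groups was more than 5 log2 units, and the difference was -6.25 ± 0.13 (SE, adjusted p = 2.19e-12). The probe of Plk1 (chromosome 7), the polo-like kinase of cell division, read 5.14, 5.50, 5.18, 4.76 and 5.28 in Expt2, against 10.36, 11.44, 10.18, 10.49, 11.06 and 11.11 in Expt1. All Expt2 arrays were low and all Expt1 arrays high, with a difference of -5.60 ± 0.22 (SE, adjusted p = 2.70e-09). The Plk1 probe was above background on 4 of 5 Expt2 arrays. In round spermatids the differences were -5.91 for 1700104B16Rik and -5.74 for Plk1, and between kd and tag spermatocytes they were -6.51 and -5.99.

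Among the other genes lower in Expt2, Cops8 (chromosome 1), a subunit of the COP9 signalosome, read 4.56, 8.81, 4.37, 4.47 and 4.99 in Expt2, against 9.30 to 10.20 in Expt1. The other 4 Expt2 arrays were low and replicate 2 was close to Expt1. Cpn1 (chromosome 19), the catalytic subunit of the plasma enzyme carboxypeptidase N, averaged 4.64 ± 0.24 in Expt2 (SD, n = 5) and 8.96 ± 0.29 in Expt1 (SD, n = 6), a difference of -4.32 ± 0.16 (SE, adjusted p = 1.43e-09). Its other 2 probes differed by -2.45 and -0.59. Psmd8 (chromosome 7), a subunit of the proteasome cap, read 7.30 to 7.78 in Expt2, against 10.90 to 12.27 in Expt1. Psmd8 remained above background on all 11 arrays, so that it was lower but not off in Expt2. Map4k1, a kinase of blood cells that lies near Psmd8 on chromosome 7, differed by -3.40 and read 5.60 to 6.24 in Expt2, against 8.93 to 9.46 in Expt1. Lower too were Lrrc18 (-3.98), a leucine-rich repeat protein of the testis, Oit1 (-3.13), Uap1 (-3.11), which makes UDP-N-acetylglucosamine, and Fcmr (-3.05), the Fc receptor for IgM. Cpn1, Lrrc18 and Oit1 were each above background on 1 of 5 Expt2 arrays, Cops8 on 2 of 5 and Fcmr on 3 of 5. Their differences are those of measured signals and not exact changes of RNA. The on/off genes Grtp1 and Tas1r1 complete the 12, ranked by measured signal, and their folds are given below as bounds.

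Higher in Expt2 was first of all Fcgr3 (chromosome 1), an Fc receptor for IgG known from macrophages and other blood cells. It read 11.43, 11.37, 11.52, 11.50 and 11.41 in Expt2, against 6.51, 7.08, 7.13, 7.69, 7.51 and 7.39 in Expt1. The Expt2 arrays lay close together and far above every Expt1 array (difference 4.23 ± 0.18, SE, adjusted p = 3.32e-09). Of the 18 macrophage and blood genes listed, 6 were tested, none was higher in Expt2 and 2 were lower, and Csf1r, Adgre1, Ptprc and Tyrobp did not pass the filter. Gfer (chromosome 17), a sulfhydryl oxidase of mitochondria, averaged 12.06 ± 0.13 in Expt2 (SD, n = 5) and 9.08 ± 0.18 in Expt1 (SD, n = 6), a difference of 2.97. Klf1 (chromosome 8), a transcription factor of red cell precursors, differed by 2.79 with 7.63 to 7.96 in Expt2, against 4.77 to 5.18 in Expt1. The haemoglobin genes Hbb-bs (-0.72) and Hba-a1 (-0.66, adjusted p = 0.103) differed the other way.

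Vav2 (chromosome 2), a guanine nucleotide exchange factor, read 11.41, 11.55, 10.71, 10.61 and 10.65 in Expt2, against 6.95 to 7.40 in Expt1 (difference 3.82). Its other 3 probes differed by 0.99, 0.58 and -0.02. Rdm1 (chromosome 11), a relative of the recombination protein RAD52, differed by 3.36 and read 8.49 to 9.82 in Expt2, against 5.86 to 6.22 in Expt1. Guca2b (chromosome 4), the gut peptide uroguanylin, read 8.15 to 8.99 in Expt2, against 4.52, 7.05, 4.37, 6.51, 4.33 and 7.22 in Expt1. In Expt1 3 arrays were near background and 3 were not, and none reached Expt2 (difference 2.95). Cptp (chromosome 4), a carrier of ceramide phosphate, was also split, with 10.39 to 10.74 in Expt2, against 4.32, 9.95, 9.03, 10.03, 4.37 and 4.32 in Expt1. The low arrays were not the same for both genes, with replicates 1, 5 and 6 low for Cptp and replicates 1, 3 and 5 for Guca2b. Its mean difference of 3.63 ± 1.10 (SE, adjusted p = 0.0301) passed narrowly and did not pass when any single Expt2 array or Expt1 replicate 6 was left out, and its other probe differed the other way (-0.92). The remaining genes among the 12 largest were Gm5796 (2.52) and the on/off genes Cyp2c55, Cmya5, Kcnab1 and Timmdc1.

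**Figure D2:**
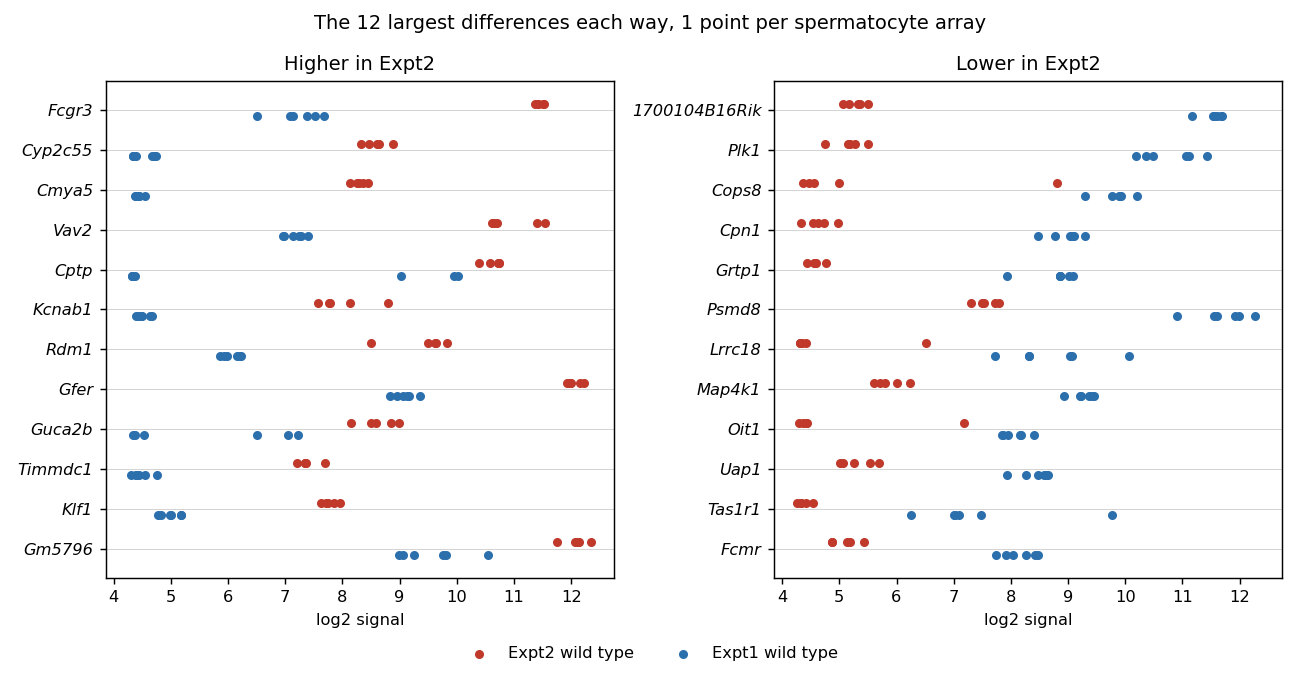
Log2 signal (x axis) of the 12 genes with the largest difference in each direction, with a point for each wild-type spermatocyte array of Expt2 (red) and Expt1 (blue). The groups do not overlap for any of the 24 genes, and a single array stands apart within a group for Cops8, Lrrc18 and Oit1 in Expt2 and for Tas1r1 in Expt1, where Cptp and Guca2b are split into 3 low and 3 higher arrays.

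These differences were then read in arrays that had not been used to find them. All 24 of the genes with the largest differences were called in the same direction in wild-type round spermatids, where 37.8% of all genes were called, 18.9% higher and 18.9% lower. Between kd spermatocytes (Expt2) and tag spermatocytes (Expt1), where 27.4% of genes were called, 1532 of them higher and 1261 lower, 10 of the 12 higher and 10 of the 12 lower genes were called in the same direction. The exceptions were Vav2, Gm5796, Psmd8 and Oit1. Vav2 read 6.34, 6.43, 6.74, 6.47 and 9.91 in kd spermatocytes, against 6.80 to 7.46 in tag spermatocytes, so that 4 kd arrays lay below every tag array and replicate 5 above them (difference 0.09). Psmd8 read 10.71 to 11.66 in kd spermatocytes and 10.84 to 12.17 in tag spermatocytes (difference -0.40). Oit1 read 7.53, 7.99, 8.36, 8.25 and 6.87 in kd spermatocytes, against 7.80 to 8.34 in tag spermatocytes (difference -0.31). For these 3 genes most kd arrays resembled Expt1 more than the Expt2 wild types, although kd and Expt2 wild-type mice belong to the same experiment. Map4k1 was called in the same direction, but its kd mean of 8.10 was also nearer to Expt1 wild types (9.27) than to Expt2 wild types (5.87). Its difference was -1.59 between kd and tag spermatocytes, against -3.40 between the wild types. Across the 603 genes with a called 2-fold difference in spermatocytes, 537 were called in the same direction in spermatids, 2 in the opposite direction and 64 were not called. Between kd and tag spermatocytes 440 of the 603 were called in the same direction and 7 in the opposite one.

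On/off genes numbered 62, or 0.609% of the genes tested. Of these, 29 were on in Expt2 and 33 on in Expt1. They were chosen by their signal in these 11 arrays, so their levels there are a description. Because the dim side gives only a ceiling, each fold is a bound: the mean of the bright group was set against the mean of the dim one, in which no array was allowed to fall under its own lowest signal above background. The bounds ran from 1.11-fold to 14.6-fold, with a median of 1.50 for genes on in Expt2 and 2.10 for genes on in Expt1. A bound of at least 2-fold was found for 26 of the 62, 9 of them on in Expt2 and 17 on in Expt1, and the others rested on signals not far above background. When a probe had to reach a detection p under 0.01, in place of 0.05, on at least 5 of the 11 arrays to be kept, the count was 37.

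Among genes on in Expt2, 5 had a bound of at least 4-fold. Cyp2c55 (chromosome 19), a cytochrome P450 of the 2C family, read 8.33, 8.88, 8.46, 8.64 and 8.60 in Expt2, against 4.33 to 4.74 in Expt1, at least 13.3-fold higher (adjusted p = 4.05e-10). In other Expt1 groups Cyp2c55 was above background on 1 of 6 wild-type spermatid, 2 of 6 tag spermatocyte and 5 of 6 tag spermatid arrays. Cmya5 (chromosome 13), a scaffold protein of striated muscle whose promoter is shown above, read 8.14, 8.29, 8.45, 8.36 and 8.25 in Expt2, against 4.43, 4.44, 4.54, 4.38, 4.43 and 4.39 in Expt1. All Expt2 arrays were equally bright and all Expt1 arrays at background, with a bound of at least 10.9-fold (adjusted p = 2.34e-11). Kcnab1 (chromosome 3), a beta subunit of voltage-gated potassium channels, read 7.56 to 8.80 in Expt2, against 4.40 to 4.67 in Expt1, at least 8.93-fold higher. In Expt2 spermatids it was above background on 4 of 5 wild-type and 1 of 5 kd arrays. Timmdc1 (chromosome 16), an assembly factor of mitochondrial complex I, was at least 5.83-fold higher in Expt2. Ptpro (chromosome 6), a receptor tyrosine phosphatase, was at least 4.20-fold higher in Expt2, with 6.70 to 7.27 in Expt2 and 4.30 to 4.67 in Expt1. In Expt1 spermatids Ptpro was above background on 2 of 6 wild-type and 3 of 6 tag arrays.

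Among genes on in Expt1, 5 had such a bound. Grtp1 (chromosome 8), a member of the TBC family of GTPase-activating proteins, read 4.44, 4.56, 4.57, 4.76 and 4.59 in Expt2, against 7.92, 8.87, 8.86, 8.86, 9.01 and 9.09 in Expt1. It was at least 14.6-fold lower in Expt2, with Expt1 replicate 1 the lowest of the Expt1 arrays. Rpe (chromosome 1), an enzyme of the pentose phosphate pathway, read 4.66 to 4.81 in Expt2, against 6.81 to 8.24 in Expt1 (at least 6.89-fold lower). Tas1r1 (chromosome 4), a subunit of the umami taste receptor, read 4.42, 4.26, 4.33, 4.54 and 4.34 in Expt2, against 9.77, 7.09, 7.47, 6.25, 7.00 and 7.03 in Expt1, at least 5.78-fold lower. Spata7 (chromosome 12), a ciliary protein of photoreceptors, was at least 4.76-fold lower in Expt2 and Adh7 (chromosome 3), a retinol-oxidising alcohol dehydrogenase, at least 4.44-fold. Tas1r1, Spata7 and Adh7 were highest on Expt1 replicate 1 (9.77, 8.18 and 8.54), the array with the highest level of round spermatid genes.

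The fainter on/off genes covered many functions. Here off means not above background, and not that no RNA was made. Bounds reached 3.76-fold for Klk1b22 but were only 1.54-fold for Pcna, 1.35-fold for Hspa5, 1.32-fold for Sp1 and 1.13-fold for Ldhb. Of these last genes, Pcna, Hspa5 and Ldhb were each above background on 2 of 6 tag spermatocyte arrays of Expt1, and Sp1 on 0 of 6. On in Expt2 were genes of cell division and chromatin (Nuf2 of the kinetochore, the polymerase clamp Pcna, the transcription factor Sp1), of signalling (Nrg1, Egf, Arhgdib, Rtkn2, Ppip5k2), of enzymes and transport (Tph2 of serotonin synthesis, Has1, Hal, Ldhb, Slc44a3, the fructose transporter Slc2a5), of protein quality control (the chaperone Hspa5, Dcaf11, Vcpip1) and of chemical senses (Olfr611, Vmn2r43). Ifi207, an interferon-induced gene, the sperm protein gene Crisp2, Speer4cos, Tanc1 and the axon guidance gene Ntng1 were on in Expt2 too. On in Expt1 were genes of defence and blood cells (the defensin Defb11, Cd96, Casp1, Tnfrsf4, Dnase1l3, Cybc1), of channels and transport (the chloride channel Cftr, the iodide transporter Slc5a5), of proteases and their inhibitors (Klk1b22, Pcsk6, the stefin-like Cstdc3) and of lipid and small-molecule metabolism (Pla2g4f, Aloxe3, Sult6b1, Nudt6). The others on in Expt1 were the RNA-binding Larp1b, Cmss1, the zinc finger genes Zfp93 and Zfp160, Myo1e, Amph, Hectd4, Mrap, Psg19, the testis kinase Tssk5, 2210409E12Rik, 1700028M03Rik and 4933402N03Rik. No list was tested for an excess of these functions.

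Of the 62, 13 kept the on/off pattern in all 8 groups, that is in wild-type spermatocytes, wild-type spermatids and between kd and tag mice in both cell types. Of these 4 were on in Expt2 (Cmya5, Nuf2, Slc2a5 and Rtkn2) and 9 on in Expt1 (Grtp1, Tas1r1, Spata7, Adh7, Larp1b, 2210409E12Rik, Cstdc3, Defb11 and Nudt6). Larp1b read 4.41 to 4.80 in Expt2 wild-type spermatocytes, against 6.49 to 7.01 in Expt1, and 4.34 to 4.45 in kd spermatocytes, against 5.95 to 7.43 in tag spermatocytes. Nuf2 read 6.37 to 6.68 in Expt2 wild-type spermatocytes, against 4.38 to 4.75 in Expt1, and 6.18 to 6.89 in kd spermatocytes, against 4.37 to 4.61 in tag spermatocytes. Both genes thus separated the 2 experiments whatever the genotype.

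For some of the other on/off genes, though not for most, the mutants did not follow their experiment. The pattern held in wild-type spermatids for 21 of the 62, in kd against tag spermatocytes for 25 and in kd against tag spermatids for 15. Klk1b22, a kallikrein, was above background on 0 of 5 Expt2 wild-type arrays and 6 of 6 Expt1 wild-type arrays, but also on 5 of 5 kd arrays. Psg19 and Zfp93 were likewise above background on all 5 kd spermatocyte arrays, and Cftr on 4 of 5. By the limma test 47 of the 62 were called in the same direction in wild-type spermatids and 44 in kd against tag spermatocytes, and none was called in the opposite direction in either. Among all 10184 genes, 18.9% were called higher and 18.9% lower in wild-type spermatids. In kd against tag spermatocytes, 1532 of the 10184 were called higher and 1261 lower.

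Levels of the set in each experiment's own spermatids were read against all genes. Of the 33 genes on in Expt1, 20 were higher in the spermatids of Expt1 than in its spermatocytes, 15 of them at least 2-fold. Of the 29 genes on in Expt2, 10 were higher in the spermatids of Expt2 than in its spermatocytes, 3 of them at least 2-fold. Over all 10184 genes, 41.1% were higher in spermatids in Expt2 (1670 genes at least 2-fold) and 41.4% in Expt1 (1532 genes at least 2-fold). With the round spermatid level of each array as a covariate, 55 of the 62 passed, and against Expt1 replicates 4 to 6 alone, whose round spermatid level (10.43 to 10.80) was near that of Expt2 (a choice made after seeing the data), 58 passed. Since the set was chosen on these arrays, passing again is no independent support. Some differences were smaller with the covariate, at -1.90 for Tas1r1 (-3.06 without it), -1.18 for Cstdc3 (-2.02 without it) and -0.72 for Defb11 (-1.54 without it). Others were larger with it, at -4.59 for Grtp1 (-4.18 without it) and -3.49 for Rpe (-2.96 without it).

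**Figure D3:**
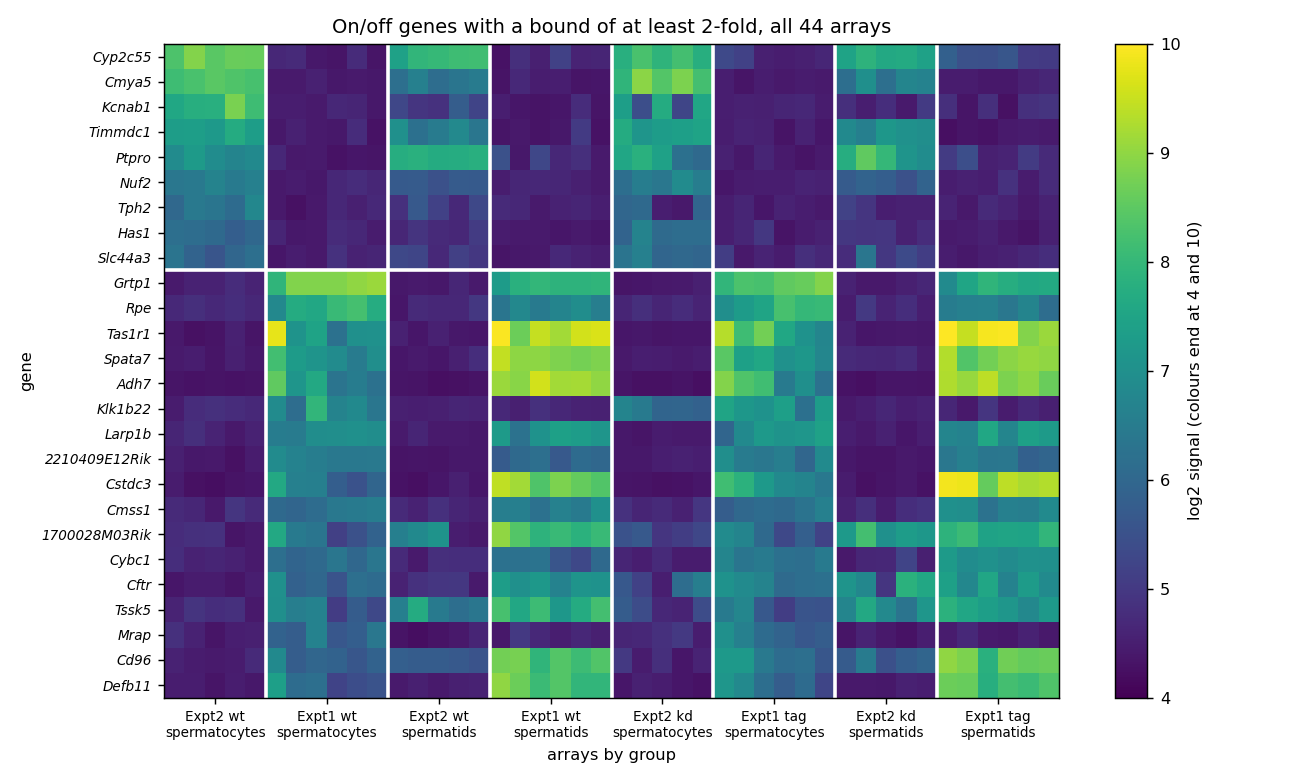
Log2 signal (colour, ending at 4 and 10) of the 26 on/off genes with a bound of at least 2-fold (rows, those on in Expt2 above) on all 44 arrays (columns, by group). Cmya5, Nuf2, Grtp1, Tas1r1, Spata7, Adh7, Larp1b, 2210409E12Rik, Cstdc3 and Defb11 keep their pattern through every pair of groups, while Klk1b22 is also bright in kd spermatocytes.

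A second probe was present for 33 of the 62 genes, and for 7 of them a further probe was above background on all arrays of a group. In 6 of the 7 the further probe had the same direction. It differed by 2.85 for Cmya5, 3.07 for Kcnab1, 1.26 for Ptpro, 0.69 for Rtkn2, -2.49 for Spata7 and, with 2 further probes, by -1.01 and -0.76 for Zfp93. In Cmss1 the further probe was above background on 5 of 5 Expt2 and 5 of 6 Expt1 arrays, at 5.17 in Expt2 and 5.26 in Expt1, and did not share the on/off pattern. For the other 26 genes with a second probe, no further probe was above background on all arrays of a group. Among these, a further probe of Egf was above background on 3 of 5 Expt2 and 3 of 6 Expt1 arrays (difference 0.11), one of Grtp1 on 0 of 5 Expt2 and 4 of 6 Expt1 arrays and one of Hal on 4 of 5 Expt2 and 1 of 6 Expt1 arrays. Where each probe lies in its transcript was not used here, and whether a base change under a probe accounts for a dim signal was not tested.

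On/off genes lay on every autosome but chromosome 18 and on neither sex chromosome. Chromosome 3 held 8 among 470 genes tested, chromosome 7 held 7 among 814 and chromosome 16 held 5 among 336. The 269 X-linked genes tested held none, too few genes to set this apart from the 0.609% over all genes. The longest run of on/off genes within 5 Mb of each other was on chromosome 4, with Slc2a5 on in Expt2 and Tas1r1 and Tnfrsf4, a receptor of activated T cells, on in Expt1, among 57 tested genes of that stretch. Slc2a5 read 5.10 to 5.86 in Expt2 and 4.37 to 4.88 in Expt1. The members of this run went in both directions. Of the 5 pairs within 5 Mb elsewhere, Nudt6 and Larp1b, Nuf2 and Ifi207, and Arhgdib and Ptpro went the same way, and Cstdc3 and Timmdc1, and Has1 and Zfp160, opposite ways. Chromosome 8 had the largest share of called genes (29.8% of 574), and the Y chromosome (8.33% of 12) and the X chromosome (15.6% of 269) the smallest. Probes without a single gene name gave 40 further on/off signals among 2745 probes.

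The wild-type difference went the same way in both cell types for most genes with a large one. Across the 10184 genes the difference in spermatids and that in spermatocytes had a Pearson correlation of 0.78 and a Spearman correlation of 0.71, which describes genes and not replicates. The difference itself changed between cell types for 132 genes (1.30%, limma interaction), 59 of them more positive and 73 more negative in spermatids. With same-numbered arrays of the 2 cell types as a random block the count was 515. It was 87 or fewer without Expt2 spermatocyte replicate 3 (87) or 5 (83), Expt1 spermatocyte replicate 2 (82), Expt2 spermatid replicate 3 (74) or 4 (83), or Expt1 spermatid replicate 2 (85).

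Some on/off genes were among those that changed, and so were Csmd1 and Vars2, which were not on/off. Olfr611, an olfactory receptor gene on chromosome 7, was faintly on in Expt2 spermatocytes (4.97 to 5.38, against 4.42 to 4.52 in Expt1) and bright in Expt2 spermatids (6.88 to 7.46, against 4.36 to 4.74 in Expt1). The difference was 2.11 larger in spermatids (adjusted p = 4.12e-09). Csmd1 (chromosome 8), a large membrane protein with complement-like domains, read 5.76 to 6.38 in Expt2 spermatocytes, against 4.42 to 4.81 in Expt1, and 8.31 to 8.90 in Expt2 spermatids, against 4.86 to 5.87 in Expt1. Its difference was 2.03 larger in spermatids. In tag mice of Expt1, Csmd1 was above background on 6 of 6 spermatocyte and 6 of 6 spermatid arrays (means 5.81 and 7.44). Vars2 (chromosome 17), the mitochondrial valine tRNA ligase, was higher in Expt2 by 0.90 in spermatocytes and by 2.92 in spermatids.

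For Cmya5 and Kcnab1 the difference between experiments was smaller in spermatids. Cmya5 read 6.15 to 6.61 in Expt2 spermatids, against 8.14 to 8.45 in Expt2 spermatocytes, and was at background on every Expt1 array of either cell type. The change of -1.96 (adjusted p = 4.12e-09) is that of the measured signals, and here as for the other genes dim in one group it is not an exact change of RNA. Kcnab1 changed by -2.73 in the same sense. Cstdc3 (-2.41, with 8.78 ± 0.44 in Expt1 spermatids and 6.35 ± 0.76 in Expt1 spermatocytes, SD, n = 6 each), Defb11 (-2.30), Adh7 (-2.12), the skin secretory protein gene Dmkn (-2.10) and Spata7 (-1.76) were more strongly lower in Expt2 in spermatids. Pnmal1 (2.08) and Klk1b22 (2.02) were lower in Expt2 spermatocytes, and in spermatids Klk1b22 was near background in both experiments.

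**Figure D4:**
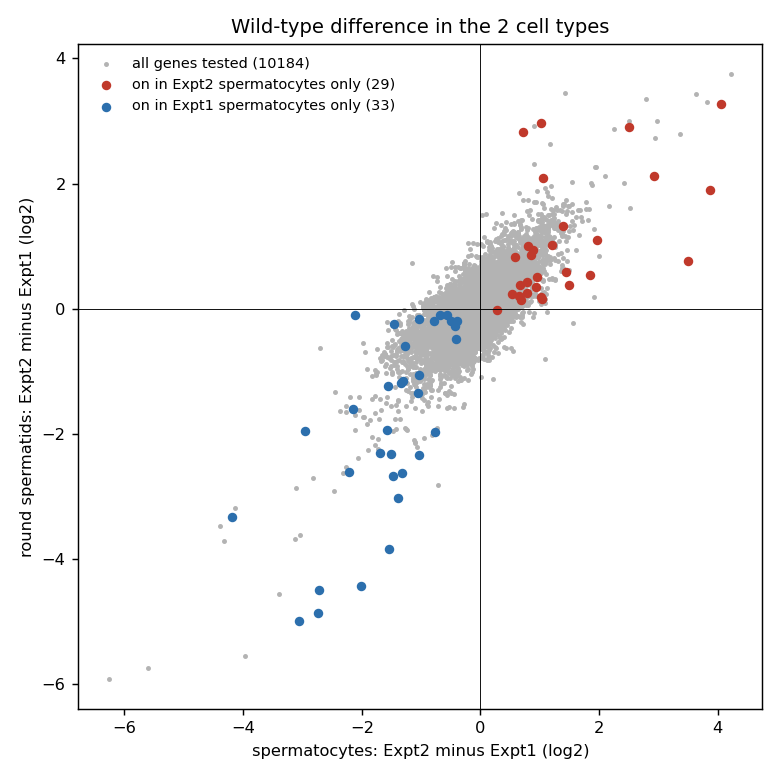
Log2 difference Expt2 minus Expt1 of 10184 genes in wild-type spermatocytes (x axis) and wild-type round spermatids (y axis), with the on/off genes of spermatocytes in red (29 on in Expt2) and blue (33 on in Expt1). Most large differences share their sign in both cell types, with 1700104B16Rik and Plk1 at the lower left and Fcgr3 at the upper right.

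Some genes were not uniform within a wild-type group. After the values were seen, genes were collected whose arrays in one group were split by a gap above 2 log2 units between neighbours, which gave 13 genes in Expt2 and 2 in Expt1, and no test was made. In all 15 the spermatid arrays with the numbers of the high spermatocyte arrays were also above the other spermatid arrays, but the gap there was again above 2 for only 8 of the 13 Expt2 genes and 1 of the 2 Expt1 genes, and it was 0.10 for Pnmal1 and 0.30 for Tas1r1. Cptp read 4.32, 9.95, 9.03, 10.03, 4.37 and 4.32 on Expt1 spermatocyte replicates 1 to 6 and 4.53, 10.26, 9.42, 10.48, 4.55 and 4.27 on Expt1 spermatid replicates 1 to 6. Arrays 1, 5 and 6 were at background in both cell types and arrays 2, 3 and 4 were bright in both. 4933427D14Rik read 5.55, 5.46, 8.50, 8.59 and 5.73 on Expt2 spermatocyte replicates 1 to 5 and 4.57, 4.52, 8.69, 8.41 and 4.89 on the spermatid replicates.

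In 11 of the 13 Expt2 genes a single array stood apart. Haus1, a subunit of the augmin complex that branches spindle microtubules, read 8.84 on replicate 4 and 5.36 to 5.69 on the others. Kif23, a kinesin of cell division, was highest on replicate 4 too (9.47, with 6.91 to 7.40 on the others). Replicate 2 was the high array for Cops8 (8.81), Thap4 (10.92), Lrrc18 (6.51) and Pnmal1 (7.65), and replicate 5 for Oit1 (7.18). The low array was replicate 1 for Necap2 (4.85, with 8.88 to 9.94 on the others), an adaptor of clathrin coats, and replicate 4 for Me1 (4.49, with 7.21 to 8.36), the cytosolic malic enzyme. Replicate 5 was low for Cdh24 (5.02), a cadherin, and Fastkd3 (4.45), a mitochondrial RNA-binding protein. Dlg1, a scaffold protein of cell junctions, was split into 3 low arrays (4.34 to 4.64) and 2 high ones (6.81 and 6.67). In Expt1 the other gene was Tas1r1, where replicate 1 stood above the rest. The labels do not say whether arrays of the same number come from the same mouse.

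**Figure D5:**
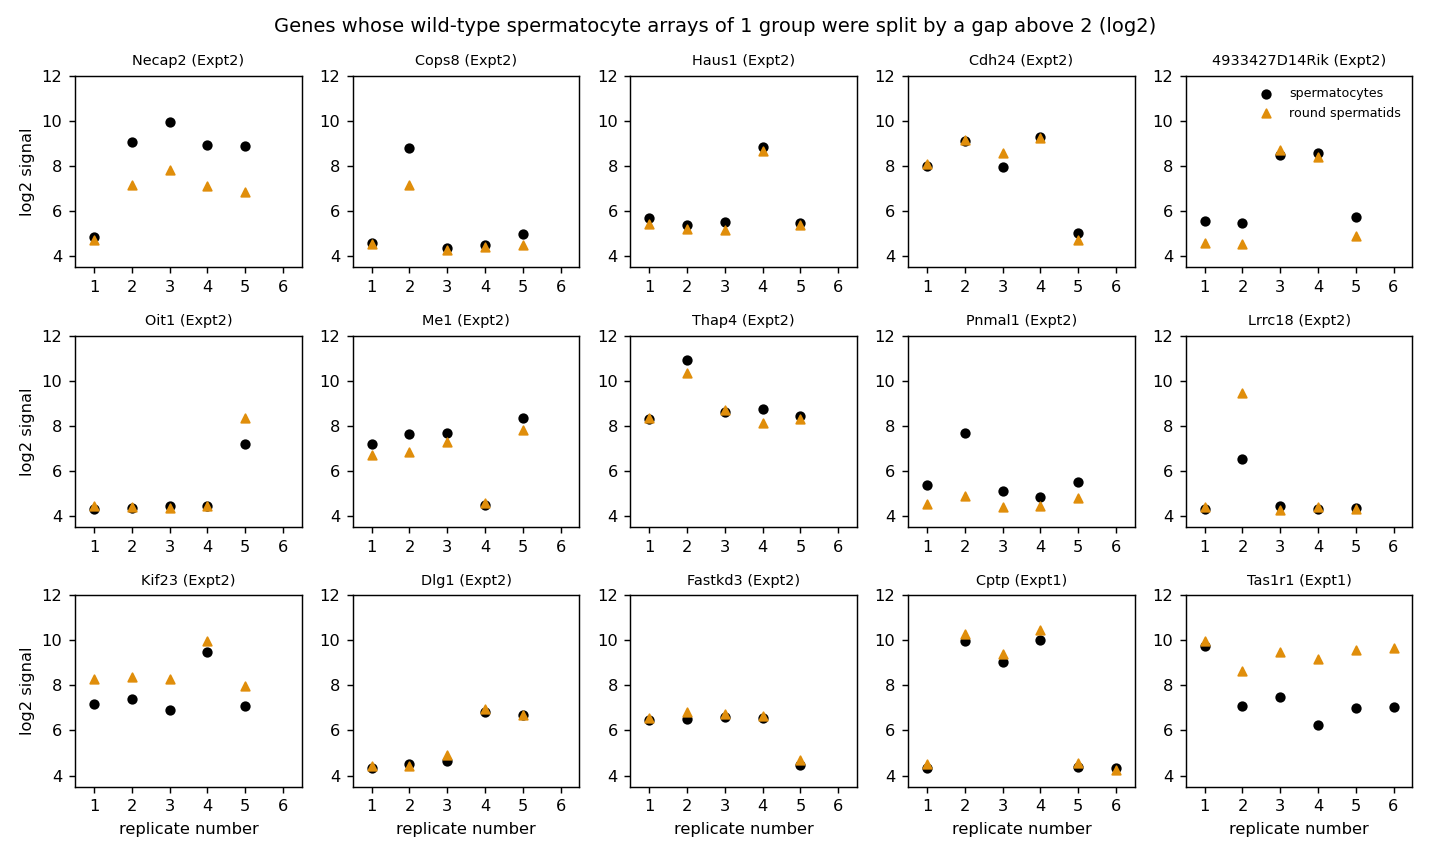
Log2 signal (y axis) by replicate number (x axis) of the 15 genes whose wild-type spermatocyte arrays (black circles) were split by a gap above 2 in the group named over each panel, with wild-type round spermatids of the same group as orange triangles. The numbers of the high arrays are the same in both cell types, with small gaps between the spermatid arrays for Pnmal1 and Tas1r1.

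The gene lists were read next, against the share of all genes called. Genes known to vary between inbred mouse strains had 16 of 35 members tested, of which 5 were higher and 1 lower in Expt2, with a median difference of 0.29 (0.01 over all genes, of which 13.1% were called higher and 10.5% lower). Slc11a1, the macrophage metal transporter behind a strain difference in resistance to infection, read 7.92 to 8.48 in Expt2, against 6.32 to 7.10 in Expt1 (difference 1.48). The MHC class I gene H2-K1 read 6.37 to 6.82 in Expt2, against 5.35 to 5.87 in Expt1 (0.90), and the glyoxalase gene Glo1 differed by 1.11. Wdfy1 (0.78) and Akr1e1 (0.78) were higher as well. Il3ra, a receptor subunit for interleukin 3, was lower in Expt2, with 7.23 to 7.43 in Expt2, against 8.47 to 9.35 in Expt1 (-1.47). Nnt, whose loss marks a common inbred line, was above background on 1 of 5 Expt2 and 6 of 6 Expt1 arrays, at a low level in both groups (difference -0.34, adjusted p = 0.0647), and the class I gene H2-D1 differed by -0.11 (adjusted p = 0.735).

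Of 33 meiotic prophase genes tested, 8 were higher and 3 lower in Expt2, with a median of 0.18. The synaptonemal complex genes Syce1 and Sycp2 were among the higher ones. Syce1 read 10.52 to 10.98 in Expt2, against 8.93 to 9.74 in Expt1 (1.44 ± 0.17, SE, adjusted p = 9.27e-05), with a like difference in spermatids (1.51) and in kd against tag spermatocytes (1.25). Sycp2 differed by 0.55, and Mei1, needed for meiotic DNA breaks, by -0.73. Hspa2, Ldhc and Ccna1 did not pass.

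Of 63 round spermatid genes tested, 1 was higher and 22 were lower in Expt2, with a median of -0.73. Against Expt1 replicates 4 to 6 alone, 2 were higher and 10 lower, and with the round spermatid level as a covariate, which is built from these genes, 10 were higher and 8 lower. Over all 10184 genes, 1138 were higher and 1120 lower against those replicates, and 1276 higher and 1290 lower with the covariate. Spaca7, an acrosome protein, read 7.81 to 8.44 in Expt2, against 9.86 to 11.83 in Expt1 (-2.44), with no overlap of the arrays. It was also lower in Expt2 spermatids, at 10.69 to 11.04, against 12.03 to 12.33 in Expt1 (-1.33). Gapdhs, the sperm glycolysis enzyme, differed by -1.55 in spermatocytes and by -0.34 in spermatids, a change of 1.22 between cell types (adjusted p = 0.0445). The one higher gene was Pick1 (0.64), which acts in acrosome formation.

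Among 39 core and linker histone genes tested, 4 were higher and 5 lower in Expt2. The histone H3 genes H3c14 (0.75) and H3c13 (0.74) were higher and the H2B gene H2bc12 (-1.01) lower. Probes of these near-identical genes may share signal, so the member behind a change is uncertain. Of 269 X-linked genes 3 were higher and 39 lower, with a median of -0.16, against 22 higher and 27 lower with Expt1 replicates 4 to 6 alone and 35 higher and 8 lower with the covariate. The X-linked counts thus differed in direction between these settings. Over all 10184 genes, 1138 were higher and 1120 lower with replicates 4 to 6 alone, and 1276 higher and 1290 lower with the covariate.

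Immediate early and heat shock genes gave 2 higher and 2 lower of 17, with Hsph1 (0.68), a co-chaperone, higher and the transcription factors Klf4 (-1.09) and Jund (-1.27) lower. Jund did not pass without Expt2 replicate 2 or Expt1 replicate 2. Neither the 10 Sertoli, the 15 peritubular and vascular nor the 10 spermatogonial genes tested held a called gene, and their largest differences by p were Gstm6 (-0.49, adjusted p = 0.0912), Igfbp7 (1.04, adjusted p = 0.0753) and Sall4 (0.50, adjusted p = 0.0565). Next in these lists came Cst9 (-0.69) and Vim (-0.67), Mylk (-0.40) and Dcn (0.37), and Rhox13 (0.76) and Id4 (0.58), none of which passed. Of the Leydig list, Cyb5a, a cytochrome that also serves steroid synthesis, was lower in Expt2, with 6.68, 6.76, 6.67, 8.41 and 7.14 in Expt2, against 8.58 to 9.73 in Expt1 (-2.26), while it read 8.70 to 9.97 in kd spermatocytes, against 8.47 to 9.78 in tag spermatocytes. Ldhb (0.28) was called higher, and Cyp11a1 (0.52, adjusted p = 0.287) was not. Ldhb lost its call when single arrays were left out, each of the 5 Expt2 arrays and Expt1 replicates 2 to 6. Apoe (-0.69) and Hbb-bs (-0.72) were the lower genes of the macrophage and blood list. Apoe did not pass without Expt2 replicate 3, 4 or 5 or Expt1 replicate 3, and Hbb-bs not without Expt2 replicate 2, 3, 4 or 5 or Expt1 replicate 3 or 5.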

How the data were processed

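RNA of 44 arrays was measured on Illumina mouse BeadChips. The deposited raw file holds, per the file headers, a mean bead intensity with its detection p-value for each probe. The deposited processed file holds intensity values with array medians of 104.27 to 104.36, as the authors' between-array normalization left them. No source used here names its software. Raw array medians were 91.4 to 119.

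Raw intensities of all 44 arrays were background corrected by normexp from the detection p-values, with an offset of 16, then quantile normalized as log2 values (neqc, limma 3.58.1, R 4.3.3). Probes were kept with a detection p under 0.05 on at least 5 of the 11 wild-type spermatocyte arrays (17965, of which 15220 had 1 gene name). The kept probe with the highest mean stood for its gene. Symbols came from the platform annotation, updated through RefSeq. Of 45281 probes, 34885 had 1 name, 18 several and 10378 none, 67 named probes had no RefSeq match, and the RefSeq table's chromosomes are those of GRCm38.p6. Of 347 list genes 342 matched a RefSeq symbol.

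The 2 wild-type groups were fitted alone with limma's moderated test, since their spread differed. Spermatids, kd against tag spermatocytes and the interaction of cell type and experiment were fitted in the same way. List levels were compared by exact permutation. The code was tested on simulated data.

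Named were the 12 largest differences each way among called genes that were above background on all arrays of the higher group and did not overlap, on/off genes with a bound of at least 4-fold, up to 3 genes per list by p, the 5 largest changes between cell types each way, H2bc1 and runs of at least 3 on/off genes within 5 Mb. Other names were chosen after their values were seen. The comparison, the lists and the rule were chosen with earlier results of these data known.

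Same-numbered spermatocyte and spermatid arrays of a group deviated together (correlations of 0.199 to 0.386 in Expt2 and 0.149 to 0.600 in Expt1), and the interaction was also fitted with that number as a random block. Alternatives covered the authors' processed values, other background corrections and normalizations, filters, probe summaries, designs, and leaving out each array.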

Additional observations from a re-analysis of the deposited data

Results flagged for a closer look

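In 158 checks of a group for a single array apart from the rest, 19 found one. Chance alone gives about 1 in 20 for independent checks. These checks shared the same 11 arrays and many used genes picked from these data, so the count cannot be weighed against that rate. In Expt2 spermatocytes the array apart was replicate 2 for Cops8 (8.81, with 4.37 to 4.99 on the others), Lrrc18 (6.51), Pnmal1 (7.65), Sall4 (5.72, the lowest) and H3c14 (9.97, the lowest). It was replicate 4 for Rdm1 (8.49, the lowest), Cyb5a (8.41) and H2bc12 (9.35), and replicate 5 for Oit1 (7.18, with 4.29 to 4.43 on the others). In Expt1 spermatocytes replicate 1, which had the highest round spermatid level, was apart for 6 genes, at 11.17 for 1700104B16Rik (the lowest), 7.92 for Grtp1 (the lowest), 9.77 for Tas1r1, 4.67 for Ptpro, 8.58 for Cyb5a (the lowest) and 10.75 for H3c13. It was also apart in the mean level of the macrophage and blood list (6.39, with 5.26 to 5.67 on the others) and of the immediate early and heat shock list (7.25, with 7.01 to 7.04). Replicate 2 of Expt1 was apart for Mei1 (6.14) and Csmd1 (4.42, the lowest). Whether these arrays share an origin was not tested.

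For 15 named genes the difference Expt2 minus Expt1 itself differed between round spermatids and spermatocytes by limma's interaction test, on measured signals that for several of them were at background in one group. It changed towards lower values in spermatids for Kcnab1 (-2.73), Cstdc3 (-2.41), Defb11 (-2.30), Adh7 (-2.12), Dmkn (-2.10), Cmya5 (-1.96), Spata7 (-1.76) and Map4k1 (-1.16), and towards higher values for Olfr611 (2.11), Pnmal1 (2.08), Csmd1 (2.03), Klk1b22 (2.02), Vars2 (2.02), Gapdhs (1.22) and Rpe (1.00). For Map4k1 the wild-type difference was -4.55 in spermatids and -3.40 in spermatocytes. For Rpe it was -1.96 in spermatids and -2.96 in spermatocytes. The 5 largest changes each way were named because they passed this test, so that choice partly fixed the count of 15. Over all 10184 genes, 132 (1.30%) passed.

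Outside the named genes, 40 probes without a single gene name were on/off between the wild types and passed the test. They cannot be assigned to a gene with the annotation used here.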

How the results depend on the processing

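The count of 2404 called genes was between 2199 and 3284 under the other settings that used all 11 arrays, and between 1723 (without Expt2 spermatocyte replicate 4) and 3096 (without Expt1 spermatocyte replicate 1) when single arrays were left out. The authors' processed values gave 2267. With arrays of the same number in the 2 wild types as a replicate block the count was 2257, but the numbers do not pair these arrays: correlations of same-numbered arrays ran from -0.235 to 0.259 and 0 of 5 matched best. The 2-fold count of 603 fell to 212 with the authors' processed values, 211 without background correction, 332 with an offset of 50, 366 with array weights, 325 with the round spermatid covariate and 296 against Expt1 replicates 4 to 6, a choice made after seeing the data. The 62 on/off genes were 37 with the stricter filter, 96 against Expt1 replicates 4 to 6, and 60 to 76 when single arrays were left out. Spermatids gave 3422 to 4350 and kd against tag 2057 to 3281 called genes when single arrays were left out. The 132 interaction genes were 515 with the replicate block, 229 with the processed values and 74 to 194 when single arrays were left out. When single arrays were left out, list differences ran from -0.83 to -0.49 (round spermatid), -0.46 to -0.23 (Sertoli), -0.31 to -0.07 (Leydig), -0.44 to -0.20 (macrophage and blood), -0.34 to -0.12 (X-linked), -0.07 to 0.24 (peritubular and vascular), 0.03 to 0.19 (spermatogonia), 0.08 to 0.17 (meiotic prophase), -0.09 to 0.13 (histones), -0.03 to 0.06 (immediate early and heat shock) and 0.22 to 0.34 (strain variants). For single named genes 1602 of the repeated values kept their status as called or not called, 30 gained and 63 lost the call. None of those that were called turned direction, and turns of direction among values never called were not counted apart. The causes were not tested. Signals near background limit the fainter on/off genes.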
